A study of Mus musculus with 2 samples.

Results

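Collagen and integrin genes were taken from the H3K36me2 peak lists of mouse colon by the gene symbol that the authors gave each peak, a collagen chain (Col, a number, a and a number) or an integrin name (*Itga* or *Itgb* and a suffix). In a RefSeq gene table, 75 mouse symbols have this form, 44 collagens and 31 integrin names. Of these, 52 had a peak in at least 1 list, among 18187 genes named in the lists. The 26 integrin subunits share their prefix with 5 genes that encode no subunit or are named only for their likeness to one (*Itgb1bp1*, *Itgb1bp2*, *Itgb2l*, *Itgb3bp* and *Itgbl1*), and of these only *Itgb2l* had a peak.

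The data comprised 1 CUT&Tag library from the colon of *Nsd2* fl/fl mice and another from that of *Nsd2* ΔIE mice, in which Villin-Cre removes the floxed *Nsd2* gene from the intestinal epithelium. The lines had a C57BL/6J background, and both libraries came from mice fed a high-fat cholesterol diet (HFCD). By the study's methods, male littermates aged 7 to 8 weeks started the diet and stayed on it for 18 weeks, while the deposited design text gives 16 weeks. Whether the *Nsd2* fl/fl mice carried Cre, and how many animals entered a library, is not given in the sources used here. In CUT&Tag, a transposase tied to an antibody cuts and tags the DNA near the antibody's target, and a peak is a stretch where such cuts pile up. There were 19976 *Nsd2* fl/fl peaks, on average 5156 bp wide, and 23518 *Nsd2* ΔIE peaks, on average 3747 bp wide. Their lowest summed signals were 21783 and 16571, and a weaker region is missing from a list whether or not it carries the mark. The read depth is unknown. *Nsd2* itself, the targeted gene, had 1 promoter peak of 3766 bp, listed in *Nsd2* ΔIE only, which does not check the deletion since a histone peak does not measure a transcript. With 1 library per genotype, no difference below has a replicate check and no test between genotypes was made.

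Collagens are the triple-helical proteins that give the extracellular matrix its strength, and integrins are the paired alpha and beta receptors through which cells hold on to that matrix and to each other. In the colon wall, fibroblasts and muscle cells make most of the fibrillar collagen, epithelial cells rest on a basement membrane of collagen IV and laminin, and leukocytes use their own integrins to settle in the mucosa. H3K36me2, the mark that NSD2 and related enzymes deposit, lies over gene bodies and the stretches between genes, often in broad domains. A colon library mixes all these cells, so fewer cells of a type and less of the mark per cell cannot be told apart.

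Among the 75 genes, 38 had a peak in *Nsd2* fl/fl (50.7%), 48 in *Nsd2* ΔIE (64.0%) and 34 in both (45.3%). Of 21900 protein-coding genes of the table, 30.9%, 32.9% and 20.4% did so. The collagen and integrin genes are long, with a median of 75474 bp against 17146 bp for all protein-coding genes, and a longer gene meets a peak more easily. Protein-coding genes were also split into 4 groups of equal size by length. In the group of the longest genes, 25 of 48 members (52.1%) had a peak in *Nsd2* fl/fl and 30 of 48 (62.5%) in *Nsd2* ΔIE, against 43.1% and 45.6% of all genes of that length. In the group of the next longest genes, 11 of 22 members had a peak in *Nsd2* fl/fl and 16 of 22 (72.7%) in *Nsd2* ΔIE, against 33.7% and 35.2%. The members were thus listed more often than other genes of like length in both libraries, by a margin that was not tested.

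A total of 84 *Nsd2* fl/fl peaks and 108 *Nsd2* ΔIE peaks were named for the 52 genes, 65 and 81 of them for collagens. The mean width was 5252 ± 2076 bp (SD over 84 peaks) and 3740 ± 1316 bp (SD over 108 peaks), close to the means of the whole lists. Their signal was that of ordinary peaks, with a median of 6.43 and 6.34 per bp against 6.14 and 6.32 over all peaks, and a highest value of 9.26 and 10.3 per bp. The members differed more from the lists in the number of peaks per gene, on average 2.21 and 2.25 against 1.60 and 1.73 over all listed genes. At least 3 peaks were named for 11 of 38 members in *Nsd2* fl/fl and for 17 of 48 in *Nsd2* ΔIE, against 13.5% and 16.3% of all genes named in those lists. The members are long genes, and these numbers of peaks were not compared among genes of like length.

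For each gene, the widths of its named peaks were summed as covered length, and the length in *Nsd2* ΔIE was set over that in *Nsd2* fl/fl as a log2 ratio. A ratio below -0.5 counted as less and one above 0.5 as more, as did a peak in 1 list only. By this rule 20 members had less length in *Nsd2* ΔIE (38.5% of 52, against 43.3% of all 18187 genes), 23 had more (44.2%, against 39.7%) and 9 had similar length (17.3%, against 16.9%). These shares lie near those of all genes. Of the 34 members with peaks in both libraries, 16 had less length (47.1%, against 41.8% of such genes) and 9 more (26.5%, against 19.0%). Their median log2 ratio was -0.39 with a range of -2.07 to 2.15, against a median of -0.32 over 7870 genes. When all ratios were centred on that median, 15 members had less length and 26 more. Since that median is negative, centring raises every ratio, and the shares over all genes after centring were not computed. In total, the members' *Nsd2* fl/fl peaks covered 441171 bp and their *Nsd2* ΔIE peaks 403902 bp.

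The lists give each peak the name of 1 gene and its distance from a start site of that gene, so a peak deep inside a long gene can carry the name of a small gene nested in it. Every peak that overlapped a member's body by at least 1 bp, whatever its name, was therefore also counted at its full width, the part outside the gene included. On that count 20 members had less length in *Nsd2* ΔIE, 17 more and 15 similar, and 22 of the 52 members changed their call, 4 of them from less to more or the reverse. Over the bodies of 11835 genes the shares were 46.4% less, 35.2% more and 18.4% similar. A total of 14 members had less length by both counts and 13 more by both. With only the bases inside the body counted, a setting added after the data were seen, 18 members had less length, 15 more and 19 similar, against 44.3%, 37.2% and 18.5% over the same 11835 genes. This moved 8 calls: *Col6a1*, *Col18a1*, *Col23a1*, *Col8a2*, *Col22a1* and *Col4a3* became similar, and *Itga7* and *Itga9* became less. By all 3 counts 11 members had less length and 11 more. The results below give the count by body, at full width unless stated, wherever it changes the call. Counts within a class are small and stand against the shares over all genes given here and above.

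**Figure D1:**
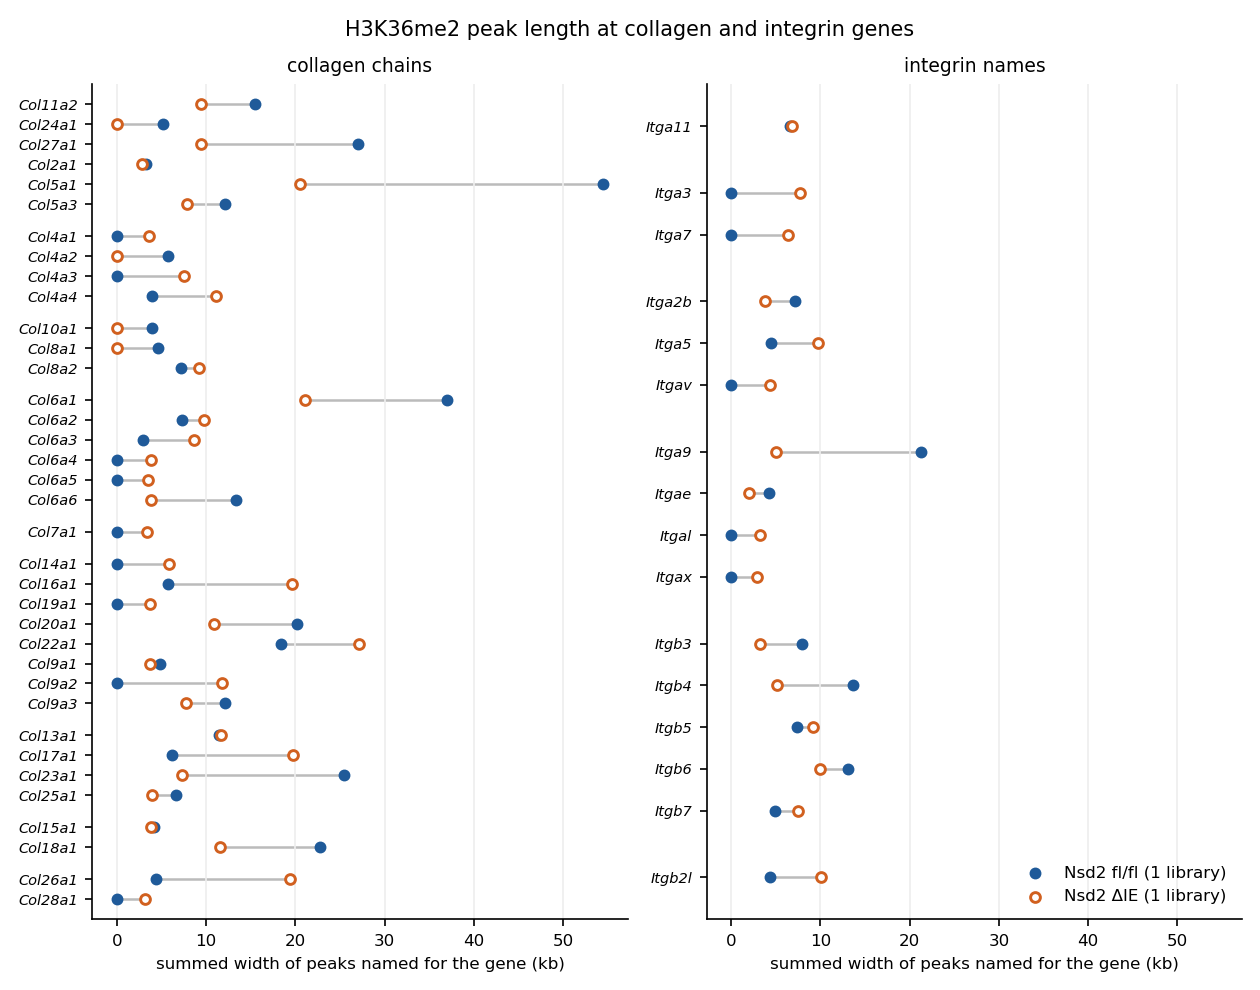
Summed width in kb of the peaks named for each of the 52 genes, filled points for *Nsd2* fl/fl and open points for *Nsd2* ΔIE, with 1 library each and genes grouped by class. *Col5a1* has the largest length in *Nsd2* fl/fl (54505 bp) and *Col22a1* in *Nsd2* ΔIE (27106 bp), and a point at 0 means that no listed peak was named for the gene.

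The fibrillar collagens form the tension-bearing fibers of connective tissue. None of the chains of collagen I and III, the main fibrils of the gut wall, had a named peak in either library: *Col1a1*, *Col1a2* and *Col3a1* were all absent, as were *Col5a2* and *Col11a1*. The lists give a gene's limits only where they name it, so the bodies of these 5 genes, and of the 18 other unnamed members, could not be searched for peaks of other names. The other 6 of the 11 genes had 22 *Nsd2* fl/fl peaks covering 117598 bp and 14 *Nsd2* ΔIE peaks covering 50148 bp, with 5 genes less, 0 more and 1 similar. Counted over the gene body, the lengths were 193939 bp and 140022 bp, with 3 genes less, 0 more and 3 similar. Over all genes, 43.3% had less length, 39.7% more and 16.9% similar by name, and 46.4%, 35.2% and 18.4% by body. Fibrillar collagens were the class with the most length in *Nsd2* fl/fl by either count.

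*Col5a1* encodes the chain of collagen V that helps start and size fibrils. It had 10 *Nsd2* fl/fl peaks covering 54505 bp and 6 *Nsd2* ΔIE peaks covering 20568 bp, a log2 ratio of -1.41. On chromosome 2, where the lists place the gene from 27776393 to 27929522 on the plus strand, 3 *Nsd2* fl/fl peaks lay between 3087 and 16814 bp upstream of the start site, and no *Nsd2* ΔIE peak carried the gene's name there. Within the gene, all 6 *Nsd2* ΔIE peaks overlapped *Nsd2* fl/fl peaks, and 3 of them lay wholly inside one. The widest peak named for the gene, an intronic one of 10879 bp from 27783308 to 27794186, met 2 separate *Nsd2* ΔIE peaks of 2177 bp and 3415 bp. The 3′ part of the gene held further peaks named for *Gm13372*, so that 11 *Nsd2* fl/fl and 14 *Nsd2* ΔIE peaks lay over the body, covering 49.0% and 33.3% of it, and the log2 ratio of their lengths was -0.55. Over this gene, *Nsd2* ΔIE thus had more peaks that covered less length.

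*Col27a1*, a fibrillar collagen of cartilage, covered 27008 bp in 5 *Nsd2* fl/fl peaks and 9407 bp in 3 *Nsd2* ΔIE peaks (log2 ratio -1.52), but 55997 bp and 43088 bp over its body, which is within the limit (-0.38). *Col11a2* covered 15535 bp and 9473 bp (-0.71) and *Col5a3* 12137 bp and 7883 bp (-0.62), both less by either count. *Col24a1* had a promoter peak of 5174 bp in *Nsd2* fl/fl alone, while over its body the lengths were similar, 10255 bp and 7590 bp. *Col2a1*, the collagen of cartilage, had 1 peak in the 5′ UTR in each library, of 3239 bp and 2817 bp, which shared 2695 bp and whose points of highest signal lay 270 bp apart.

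**Figure D2:**
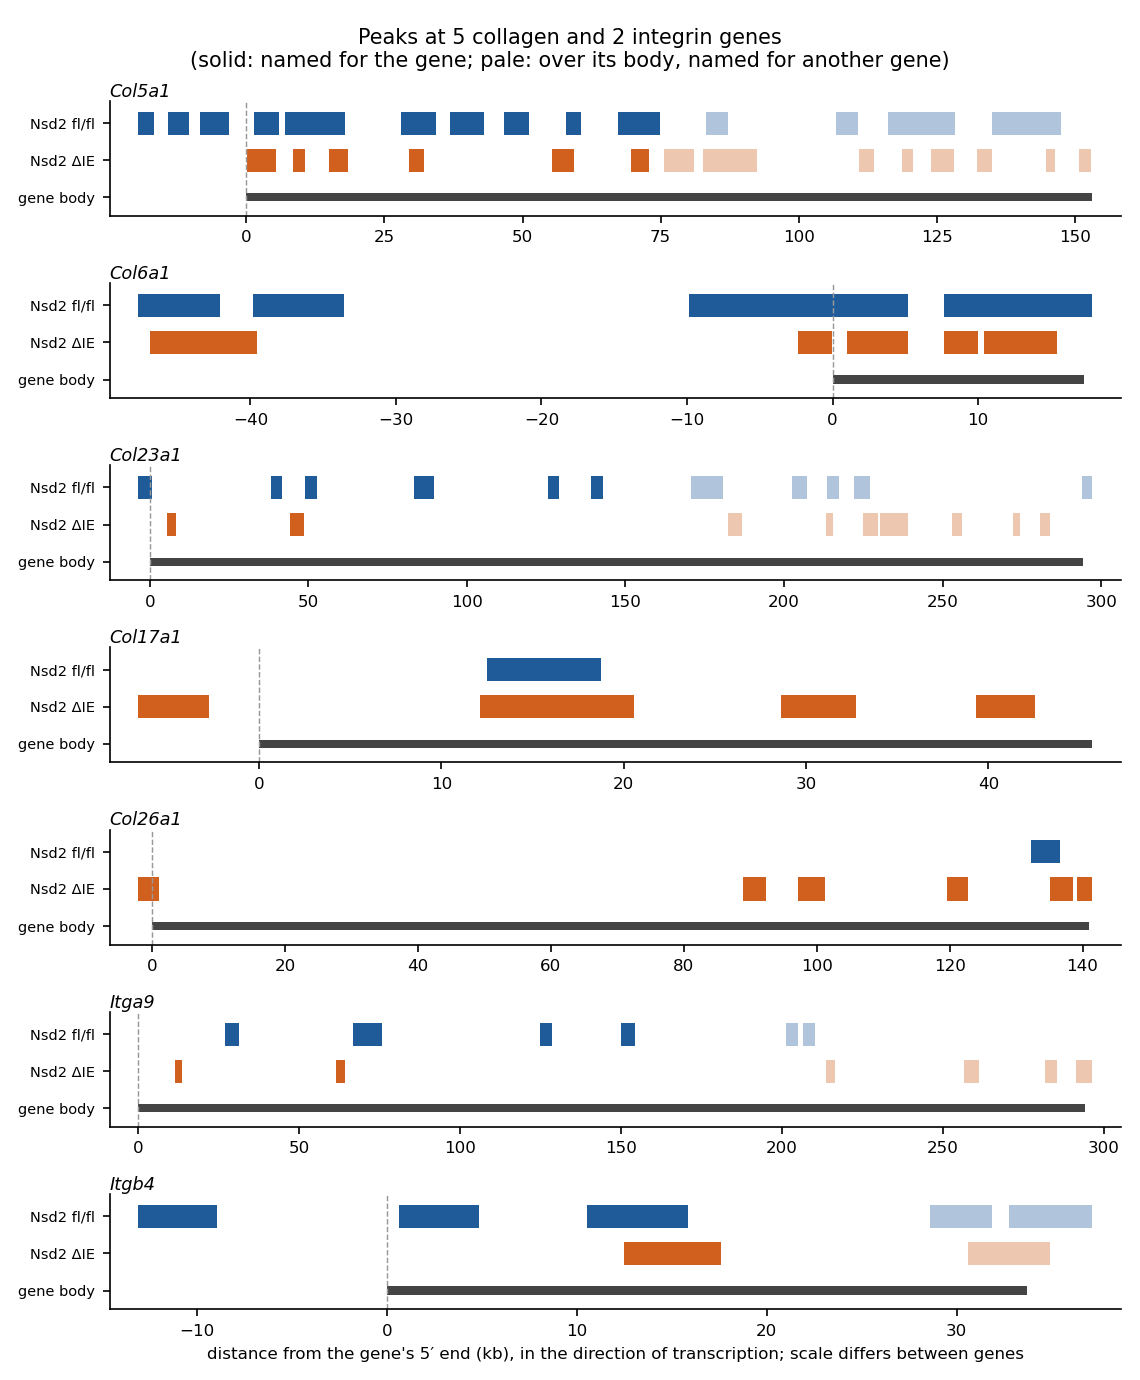
Peaks of both libraries along *Col5a1*, *Col6a1*, *Col23a1*, *Col17a1*, *Col26a1*, *Itga9* and *Itgb4*, with the distance from the gene's 5′ end in kb in the direction of transcription, solid bars for peaks named for the gene and pale bars for peaks over its body that carry another name. Over *Col5a1*, 11 *Nsd2* fl/fl and 14 narrower *Nsd2* ΔIE peaks lie along the body, while over *Col17a1* and *Col26a1* most peaks are in *Nsd2* ΔIE.

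Collagen VI forms beaded microfilaments around cells in most connective tissue. Its 6 chains all had a peak in at least 1 library, covering 60620 bp (*Nsd2* fl/fl) and 50655 bp (*Nsd2* ΔIE), with 2 less, 3 more and 1 similar. By body the lengths were 72494 bp and 54794 bp, with 2 less, 2 more and 2 similar. The shares over all genes were 43.3% less and 39.7% more by name, and 46.4% and 35.2% by body. *Col6a1* stood out for its broad peaks. The gene lies at 76544626 to 76561878 of chromosome 10, on the minus strand. A *Nsd2* fl/fl peak of 15020 bp ran over the promoter from 76556703 to 76571722, at rank 112 of the 19976 peaks by summed signal. The 2 *Nsd2* ΔIE promoter peaks, of 4144 bp and 2311 bp, lay wholly inside it on either side of the start site. A second *Nsd2* fl/fl peak of 10155 bp covered the 3′ part of the gene, where *Nsd2* ΔIE had peaks of 4995 bp and 2327 bp. Of the *Col6a1* body, *Nsd2* fl/fl peaks covered 85.4% and *Nsd2* ΔIE peaks 66.5%, the largest share among the members in each library. Over all named peaks the length was 37055 bp and 21117 bp (log2 ratio -0.81), while inside the gene it was 14739 bp and 11466 bp, a similar length (-0.36). A further pair of *Nsd2* fl/fl peaks and 1 *Nsd2* ΔIE peak carried the name of *Col6a1* but began 33575 to 42067 bp upstream, and 2 of these 3 were annotated to an exon of its neighbour *Pcbp3*.

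*Col6a2*, the neighbour of *Col6a1*, had similar length, 7266 bp in 1 *Nsd2* fl/fl peak and 9822 bp in 3 *Nsd2* ΔIE peaks, of which 1 lay at the promoter. *Col6a3*, whose chain carries the longest globular ends of collagen VI, covered 2938 bp and 8613 bp (1.55), and 9306 bp and 18991 bp over its body (1.03). *Col6a6* went the other way, with 3 *Nsd2* fl/fl peaks covering 13361 bp and 1 *Nsd2* ΔIE peak of 3826 bp (-1.80). Its neighbours *Col6a5* and *Col6a4* had a single peak each in *Nsd2* ΔIE only, of 3485 bp and 3792 bp. One *Nsd2* fl/fl peak named for *Col6a6* lay in an intron of *Col6a5*, so that over the body *Col6a5* had 4380 bp and 3485 bp, a similar length.

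Collagen IV is the network collagen of basement membranes. By name, 4 of its 6 genes had a peak, with 9744 bp under *Nsd2* fl/fl peaks and 22253 bp under *Nsd2* ΔIE peaks, and 1 gene less and 3 more. By body these 4 genes had 30517 bp and 50831 bp, with 0 less, 3 more and 1 similar. Of all genes, 43.3% had less and 39.7% more by name, and 46.4% and 35.2% by body. *Col4a1* and *Col4a2* lie head to head on chromosome 8, and the lists named their peaks across the pair. A *Nsd2* fl/fl promoter peak of 5737 bp named for *Col4a2* lay in the body of *Col4a1*, and a *Nsd2* ΔIE peak of 3602 bp named for *Col4a1* lay in the body of *Col4a2*. By name, *Col4a2* therefore had less length in *Nsd2* ΔIE. By body it had more, 8546 bp in 2 *Nsd2* fl/fl peaks and 22391 bp in 7 *Nsd2* ΔIE peaks (1.39), and *Col4a1* had more as well, 9000 bp and 13716 bp (0.61). *Col4a3* covered 7538 bp in *Nsd2* ΔIE and had no named peak in *Nsd2* fl/fl, but inside its body the lengths were 4299 bp, under a *Nsd2* fl/fl peak named for *Mff*, and 6065 bp, just within the limit (0.50). Its neighbour *Col4a4* covered 4007 bp and 11113 bp by name (1.47), and 8672 bp and 7186 bp over its body, a similar length. *Col4a5* and *Col4a6*, the pair on the X chromosome, had no named peak in either library.

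Of the other network collagens, *Col8a2* had 7249 bp and 9259 bp by name and less in *Nsd2* ΔIE by body (14467 bp and 6802 bp, -1.09). Inside its body the difference was just within the limit (9554 bp and 6802 bp, -0.49). *Col8a1* and *Col10a1* had a single peak in *Nsd2* fl/fl only, of 4599 bp and 3963 bp. *Col7a1*, the anchoring fibril that ties the epithelial basement membrane to the stroma, had by name 1 peak only, a *Nsd2* ΔIE promoter peak of 3422 bp. Over its body, from 108782654 to 108813943 on chromosome 9, each library had 2 broad peaks at nearly the same places that were named for the nested microRNA gene *Mir711*. These measured 7423 bp and 8121 bp in *Nsd2* fl/fl and 7940 bp and 9103 bp in *Nsd2* ΔIE. The peaks covered 49.7% and 56.9% of the gene, and the length was similar (log2 ratio 0.40).

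The fibril-associated collagens (FACIT), which sit on the surface of fibrils, had 11 *Nsd2* fl/fl peaks covering 61234 bp and 22 *Nsd2* ΔIE peaks covering 90426 bp. By name 2 genes had less, 5 more and 1 similar length among 8 with a peak, and *Col12a1* had none. By body the lengths were 88132 bp and 102421 bp, with 3 genes less, 3 more and 2 similar. Over all genes, 43.3% had less and 39.7% more by name, and 46.4% and 35.2% by body. *Col22a1* had the largest length of any member in *Nsd2* ΔIE, 27106 bp in 7 peaks, against 18366 bp in 3 *Nsd2* fl/fl peaks (log2 ratio 0.56), just past the limit, and inside its body the length was similar (21390 bp and 24929 bp, 0.22). *Col16a1* covered 5694 bp and 19593 bp (1.78), although over its body the lengths were similar, 18439 bp and 21440 bp, since *Nsd2* fl/fl peaks over the gene carried other names. *Col9a2*, a cartilage collagen, had no *Nsd2* fl/fl peak by name or body and 3 *Nsd2* ΔIE peaks with a summed width of 11755 bp, of which 9649 bp lay in the gene and made up 61.2% of its body. *Col14a1* and *Col19a1* had named peaks in *Nsd2* ΔIE only, covering 5850 bp and 3765 bp, and over their bodies *Col14a1* had more (4050 bp and 12128 bp, 1.58) and *Col19a1* similar length (7079 bp and 7452 bp). *Col20a1* had less length in *Nsd2* ΔIE (20207 bp and 10934 bp, -0.89), as did *Col9a3* (12122 bp and 7736 bp, -0.65). By name *Col9a1* had 1 peak in each library, of 4845 bp and 3687 bp, but the *Nsd2* ΔIE peak lay in an exon of its neighbour *Col19a1*, and over the body of *Col9a1* no *Nsd2* ΔIE peak was listed.

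Of the transmembrane collagens, *Col17a1* is the collagen of hemidesmosomes, the junctions that fix epithelial cells to the basement membrane. It had 1 *Nsd2* fl/fl peak of 6248 bp in an exon, at 47661744 to 47667991 of chromosome 19. The *Nsd2* ΔIE list had a peak of 8456 bp that contained it, the single such case among the pairs of peaks named for a member, together with 3 more peaks of 3264 to 4130 bp, 1 of them 2732 bp upstream of the start site. The covered length was 6248 bp and 19745 bp (log2 ratio 1.66, and 1.34 by body). *Col23a1* showed the opposite, with 6 *Nsd2* fl/fl peaks covering 25477 bp and 2 *Nsd2* ΔIE peaks covering 7332 bp (-1.80), none of which overlapped. Over its whole body lay 11 and 9 peaks, with summed widths of 52071 bp and 35813 bp (-0.54). Inside the body they covered 45514 bp and 35813 bp, a similar length (-0.35). *Col13a1* had similar length by name, 11437 bp and 11712 bp, and more in *Nsd2* ΔIE by body, 32579 bp and 52791 bp (0.70). *Col25a1* had 1 peak upstream of the gene in each library, of 6652 bp and 3979 bp (-0.74), and more length in *Nsd2* ΔIE over its body (5301 bp and 14570 bp, 1.46).

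The multiplexins are basement membrane collagens whose ends are cut off as signalling fragments. *Col18a1* covered 22752 bp in 5 *Nsd2* fl/fl peaks and 11546 bp in 4 *Nsd2* ΔIE peaks (-0.98, and -0.51 by body). Inside its body the length was similar, 25995 bp and 19271 bp (-0.43). *Col15a1* had 1 upstream peak in each, of 4210 bp and 3857 bp, with 16308 bp and 33969 bp over its body (1.06). *Col26a1* had the largest ratio of all members, 4370 bp in 1 *Nsd2* fl/fl peak and 19449 bp in 6 *Nsd2* ΔIE peaks (2.15), and the count by body gave the same ratio. Its *Nsd2* ΔIE peaks were narrow, from 2326 to 4041 bp, and 3 of them ranked between 20146 and 21520 among the 23518 peaks of their list by summed signal. *Col28a1* had 1 *Nsd2* ΔIE peak of 3191 bp by name, and less length in *Nsd2* ΔIE by body (5959 bp and 3191 bp).

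**Figure D3:**
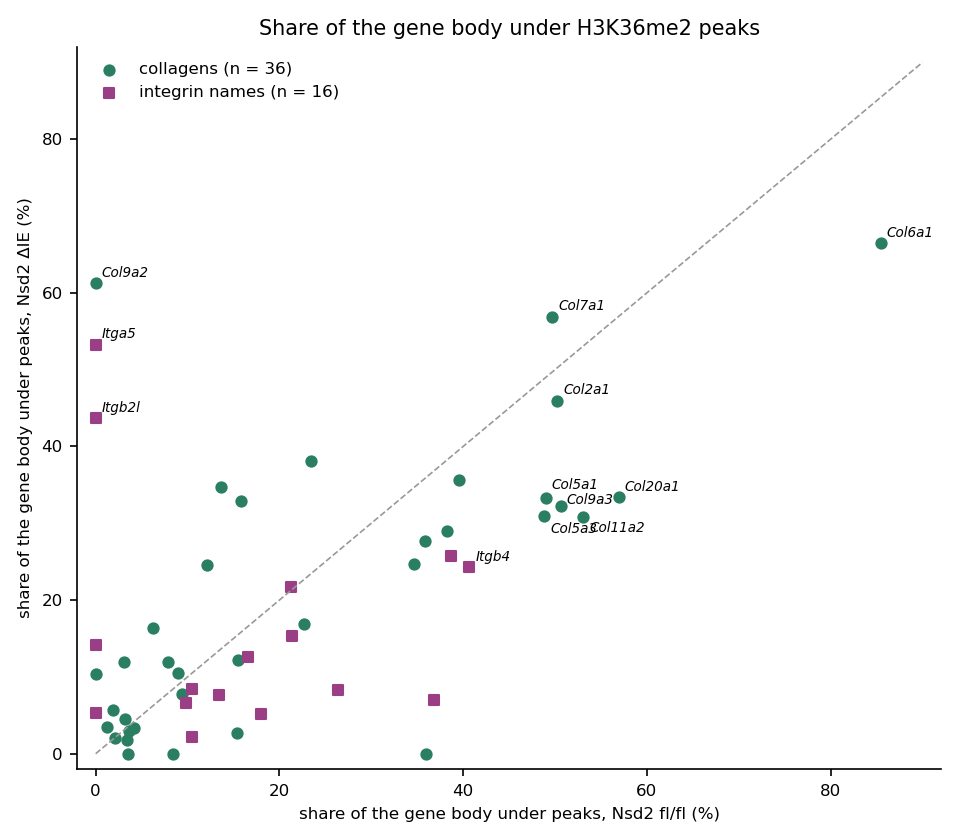
Share in percent of each member's body that lies under peaks of *Nsd2* fl/fl (horizontal axis) and *Nsd2* ΔIE (vertical axis), 1 point per gene, circles for 36 collagens and squares for 16 integrin names, with genes above 40% labelled and equal shares on the dashed line. *Col6a1* is highest in both (85.4% and 66.5%), and the labelled genes *Col9a2*, *Itga5* and *Itgb2l* lie at 0 on the horizontal axis because no *Nsd2* fl/fl peak overlapped them.

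Integrins carried fewer peaks than collagens, 19 in *Nsd2* fl/fl on 11 genes and 27 in *Nsd2* ΔIE on 16 genes, covering 95018 bp and 96928 bp. By name 5 had less length in *Nsd2* ΔIE, 8 more and 3 similar, by body 6 less, 4 more and 6 similar, and inside the body 8 less, 4 more and 4 similar. By name, 5 integrin genes had a peak in *Nsd2* ΔIE only and none in *Nsd2* fl/fl only, while of all genes with a peak in 1 list only, 55.5% had it in *Nsd2* ΔIE. By body, 3 of these 5, *Itga3*, *Itga7* and *Itgal*, had *Nsd2* fl/fl peaks as well. *Itgb1*, the beta subunit that most matrix-binding integrins share, had no named peak in either library. Of its collagen-binding partners, *Itga1*, *Itga2* and *Itga10* had none either, and *Itga11*, the collagen receptor of fibroblasts, had similar length, 6581 bp in 1 *Nsd2* fl/fl peak and 6830 bp in 2 *Nsd2* ΔIE peaks that did not overlap it.

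The laminin-binding integrins hold cells on the basement membrane. *Itga6* had no named peak. *Itga3* and *Itga7* had named peaks in *Nsd2* ΔIE only, covering 7763 bp and 6319 bp. By body the picture differed, since the *Nsd2* fl/fl peaks there carried the names of neighbours. Over *Itga3* the lengths were 10402 bp in *Nsd2* fl/fl, with both peaks named for *Pdk2*, and 2700 bp in *Nsd2* ΔIE (log2 ratio -1.95), and over *Itga7* they were similar, 9615 bp and 8208 bp, but less in *Nsd2* ΔIE inside the body (8455 bp and 5624 bp, -0.59). *Itgb4*, the partner of *Itga6* in hemidesmosomes, had 3 *Nsd2* fl/fl peaks covering 13663 bp and 1 *Nsd2* ΔIE peak of 5088 bp (-1.43, and -0.86 by body). On chromosome 11 this peak, from 115878033 to 115883120, shared 3347 bp with a promoter peak of 5315 bp in *Nsd2* fl/fl, and their points of highest signal lay 282 bp apart.

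Among the integrins that bind RGD peptides, as in fibronectin and vitronectin, *Itga5* covered 4420 bp in 1 *Nsd2* fl/fl peak and 9739 bp in 3 *Nsd2* ΔIE peaks (1.14), and by body it had length in *Nsd2* ΔIE only (11985 bp). *Itgav*, whose protein activates the growth factor TGF-beta, had a single *Nsd2* ΔIE peak of 4357 bp in an exon. Its partners differed. *Itgb6*, the epithelial one, had 2 *Nsd2* fl/fl promoter peaks covering 13043 bp and 3 *Nsd2* ΔIE peaks outside promoters covering 9970 bp, 1 of them in an intron of *Rbms1*, and by body the lengths were 13043 bp and 2708 bp (-2.27). *Itgb5* covered 7351 bp and 9134 bp by name and 18121 bp and 9134 bp by body (-0.99). *Itgb3* had less length by both counts (7982 bp and 3216 bp by name, -1.31), and *Itgb8* and *Itga8* had no named peak. *Itga2b*, the platelet integrin, had 1 promoter peak in each library, of 7151 bp and 3749 bp (-0.93).

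The leukocyte integrins include the receptors that bring lymphocytes into the gut. *Itgb7*, the beta subunit of the gut-homing integrins, had a promoter peak of 4965 bp in *Nsd2* fl/fl that met 2 *Nsd2* ΔIE promoter peaks of 3781 bp and 3708 bp. Its length was counted as more by name (log2 ratio 0.59) and as similar by body (-0.39). *Itgae*, its partner on lymphocytes within the epithelium, had overlapping promoter peaks of 4239 bp and 2015 bp (-1.07), and similar length by body (-0.49). *Itga4*, the other partner, had no named peak, nor had *Itgb2*, *Itgam* and *Itgad*. *Itgal* and *Itgax* each had a single named peak in *Nsd2* ΔIE, of 3272 bp and 2884 bp, although a *Nsd2* fl/fl peak of 4087 bp named for *Zfp768* lay over *Itgal*. *Itga9* had the lowest ratio of all members by name, 21256 bp in 4 *Nsd2* fl/fl peaks and 5061 bp in 2 *Nsd2* ΔIE peaks (-2.07), none of which overlapped. By body it had 6 peaks in each library with similar summed widths, 28830 bp and 21360 bp (-0.43), and inside the body it had less in *Nsd2* ΔIE, 28830 bp and 19265 bp (-0.58). *Itgb2l*, which is next to *Igsf5*, had 4367 bp in *Nsd2* fl/fl outside its body and 10042 bp in *Nsd2* ΔIE.

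By position, 37 of the 84 *Nsd2* fl/fl peaks of the members overlapped a *Nsd2* ΔIE peak by at least 1 bp, a share of 44.0% (95% Wilson interval 33.9% to 54.7%), and 44 of the 108 *Nsd2* ΔIE peaks overlapped a *Nsd2* fl/fl peak, 40.7% (31.9% to 50.2%). Over the whole lists the shares were 34.1% and 30.7%. The intervals cover only the counting of peaks, and peaks of 1 gene are not independent of each other. Peaks of like width, the middle 50% of the members' widths, overlapped in 38.1% and 31.5% of cases, against 29.5% and 27.5% of all peaks of those widths, with intervals from 25% to 53.2% and from 20.7% to 44.7% that hold the values of all peaks. Collagen peaks overlapped in 49.2% and 46.9% of cases and integrin peaks in 26.3% (5 of 19) and 22.2% (6 of 27). The intervals of collagens (37.5% to 61.1% and 36.4% to 57.7%) and integrins (11.8% to 48.8% and 10.6% to 40.8%) overlap.

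Of the 34 members with peaks in both libraries, 22 had a pair that overlapped (64.7%, against 60.7% of such genes), 17 collagens and 5 integrins, and the other 12 had peaks at different places. In 10 of the 44 overlapping pairs the *Nsd2* ΔIE peak lay wholly inside the *Nsd2* fl/fl peak (22.7%, against 26.9% of all pairs). The reverse held for 1 pair (2.27%, against 5.91%). The points of highest signal of a pair lay a median of 2221 bp apart, against 1956 bp over all 7465 pairs of the lists, and within 500 bp in 5 pairs (11.4%, against 16.1% of all pairs). These values lie near those of all pairs.

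The authors' annotation takes 3 kb on each side of a start site as promoter, and by it 27.4% of the *Nsd2* fl/fl and 32.4% of the *Nsd2* ΔIE peaks of the members lay at promoters, against 32.1% and 27.9% of all peaks. The intervals of the members, 19.0% to 37.7% and 24.3% to 41.7%, hold both values. Exons held more of the members' peaks than of all peaks, 26.2% (18% to 36.5%) and 28.7% (21.0% to 37.9%) against 16.5% and 17.4%. Distal intergenic regions held 10.7% (5.74% to 19.1%) and 8.33% (4.45% to 15.1%) of them against 18% and 20.1% of all peaks, and the interval of *Nsd2* fl/fl holds the value of all peaks. Introns held 25% and 22.2%. Collagen genes are long and have many short exons, and the share of exon sequence under the peaks was not counted. Of the exon and intron peaks, 2 of 43 and 5 of 55 were annotated to a feature of another gene than the one named, against 47.6% and 47.5% of such peaks over the lists.

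**Figure D4:**
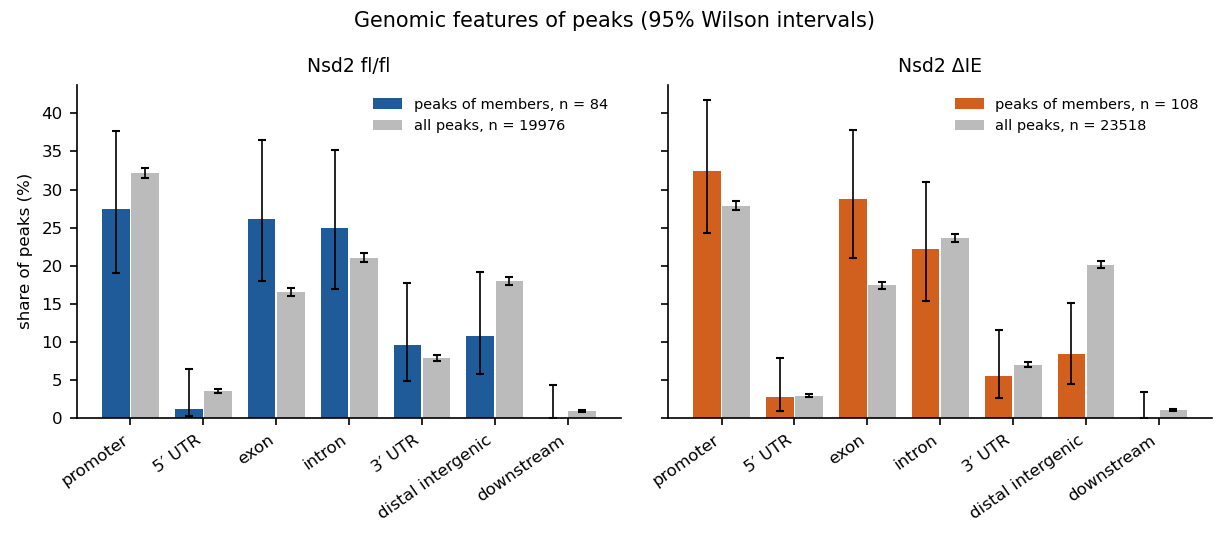
Share in percent of peaks in each genomic feature of the authors' annotation, for the peaks of the collagen and integrin genes (coloured bars, 84 *Nsd2* fl/fl peaks and 108 *Nsd2* ΔIE peaks) and for all peaks (grey bars), with 95% Wilson intervals that cover counting error only. The exon bar of the members is higher than that of all peaks in both libraries and the distal intergenic bar is lower.

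A promoter peak was listed in *Nsd2* fl/fl for 19 members, in *Nsd2* ΔIE for 26 and in both for 13. At 11 of these the promoter peaks overlapped: *Col5a1*, *Col6a1*, *Col11a2*, *Col13a1*, *Col16a1*, *Col18a1*, *Col27a1*, *Itga2b*, *Itgae*, *Itgb4* and *Itgb7*. The shared length ran from 293 bp at *Col27a1* to 4362 bp at *Col13a1*. How many of all genes had a promoter peak, or promoter peaks that overlapped, was not counted. Whether the members differ from other genes in this is therefore not known. At *Col8a2* and *Itga5* the promoter peaks did not meet. The *Nsd2* fl/fl peak of *Itga5* began 1197 bp upstream of the start site and the nearest *Nsd2* ΔIE peak 1979 bp downstream, and the *Nsd2* fl/fl peak of *Col8a2* covered the start site while the nearest *Nsd2* ΔIE peak of that transcript ended 2494 bp upstream.

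The strongest peaks per bp among the members were an intronic peak of *Col5a1* in *Nsd2* fl/fl (9.26 per bp, 1.51 times the median of the list), the 5′ UTR peak of *Col2a1* (8.84) and an exonic peak of *Col5a1* (8.69). In *Nsd2* ΔIE they were an exonic peak of *Col9a3* (10.3 per bp, 1.63 times the median), an intronic peak of *Col22a1* (9.85) and an exonic peak of *Col6a2* (9.79). None of these 6 peaks lay at a promoter. Signal per bp was used only within a list. A list ends at a lowest summed signal, so a narrow peak is listed only if its signal per bp is high. By summed signal, the intronic *Col5a1* peak (2594 bp) ranked 14776 of 19976. The *Col22a1* (1892 bp) and *Col6a2* (1750 bp) peaks ranked 16112 and 21207 of 23518. The *Col2a1*, exonic *Col5a1* and *Col9a3* peaks ranked 8436, 645 and 1977 in their lists.

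The sequences before 7 start sites are shown to set promoters that lay at or near a peak beside those of fibrillar collagens with no named peak. They were read from a RefSeq promoter table of the build GRCm38.p6, which differs from the build of the lists, and matched by symbol. For the 5 genes with a promoter peak the gene length was equal in the table and the lists. Each runs 250 bases 5′ to 3′ on the gene's strand and ends at the base before the start site. Capitals mark a TATA box, searched for as TATAAA, on either strand. They also mark the CCAAT box, which is spelled as it is named, and the GC box, searched for as GGGCGG. Neighbouring GC boxes may overlap.

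The first 4 genes had a promoter peak, within 3 kb of that start site, in both libraries. *Col17a1* had one in *Nsd2* ΔIE only, and *Col1a2* and *Col3a1* had no named peak. At *Col6a1* and *Col8a2* only a *Nsd2* fl/fl peak covered the start site, and at *Itga5* and *Col17a1* no listed peak did.
*Col6a1*, chr10:76726045-76726294, minus strand: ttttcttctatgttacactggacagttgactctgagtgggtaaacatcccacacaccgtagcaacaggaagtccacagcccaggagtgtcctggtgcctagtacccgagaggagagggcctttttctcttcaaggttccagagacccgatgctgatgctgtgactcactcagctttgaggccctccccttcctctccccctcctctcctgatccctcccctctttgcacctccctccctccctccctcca
*Itga2b*, chr11:102469884-102470133, minus strand: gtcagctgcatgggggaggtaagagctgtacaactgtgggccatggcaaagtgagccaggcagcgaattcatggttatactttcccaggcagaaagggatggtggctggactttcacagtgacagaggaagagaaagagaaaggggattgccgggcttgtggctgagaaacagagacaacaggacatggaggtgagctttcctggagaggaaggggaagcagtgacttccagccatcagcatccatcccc
*Col8a2*, chr4:126286544-126286793, plus strand: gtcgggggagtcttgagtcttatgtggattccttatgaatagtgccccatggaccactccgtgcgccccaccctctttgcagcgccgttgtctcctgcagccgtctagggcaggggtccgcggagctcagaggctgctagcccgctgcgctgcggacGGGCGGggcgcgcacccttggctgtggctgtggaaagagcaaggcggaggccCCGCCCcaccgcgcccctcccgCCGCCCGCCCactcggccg
*Itga5*, chr15:103366792-103367041, minus strand: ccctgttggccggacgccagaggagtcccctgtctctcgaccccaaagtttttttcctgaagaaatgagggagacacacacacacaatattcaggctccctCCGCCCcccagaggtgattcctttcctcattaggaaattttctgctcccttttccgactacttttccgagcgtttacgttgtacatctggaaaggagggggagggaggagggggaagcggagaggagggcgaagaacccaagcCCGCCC
*Col17a1*, chr19:47692043-47692292, minus strand: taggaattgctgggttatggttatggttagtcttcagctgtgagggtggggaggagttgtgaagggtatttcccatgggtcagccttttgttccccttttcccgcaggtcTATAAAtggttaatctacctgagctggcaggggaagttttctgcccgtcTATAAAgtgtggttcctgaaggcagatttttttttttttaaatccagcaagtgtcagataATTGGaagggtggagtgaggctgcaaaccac
*Col1a2*, chr6:4505368-4505617, plus strand: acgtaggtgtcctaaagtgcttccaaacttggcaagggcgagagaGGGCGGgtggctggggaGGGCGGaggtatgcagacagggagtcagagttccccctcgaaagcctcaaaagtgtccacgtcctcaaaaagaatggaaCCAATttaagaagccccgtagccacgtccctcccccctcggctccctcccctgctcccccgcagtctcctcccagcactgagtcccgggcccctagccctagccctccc
*Col3a1*, chr1:45311288-45311537, plus strand: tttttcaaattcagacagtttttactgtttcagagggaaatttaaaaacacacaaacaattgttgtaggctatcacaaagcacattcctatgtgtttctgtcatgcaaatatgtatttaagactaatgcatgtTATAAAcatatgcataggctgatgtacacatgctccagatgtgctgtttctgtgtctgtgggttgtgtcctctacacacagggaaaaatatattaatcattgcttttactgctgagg

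These stretches range widely in base composition. *Col8a2* holds 24 CpG sites and 70.0% G and C, and *Col3a1* holds 0 CpG sites and 35.2%. *Col6a1* and *Itga2b*, with overlapping promoter peaks, hold only 3 and 2 CpG sites and none of the 3 motifs. *Col1a2*, without a named peak, holds 11 CpG sites, a GC box and a CCAAT box. *Col8a2* and *Itga5* hold a GC box, *Col3a1* a TATA box, and *Col17a1* a TATA box and a CCAAT box. Over the 62 promoters of 57 members in the table, the median was 10 CpG sites for the 46 promoters of members with a peak and 10 for the 16 of members without one, against 6 over 32851 promoters. A GC box was found in 48.4% of the members' promoters, a CCAAT box in 27.4% and a TATA box in 8.06%, against 32.7%, 33.8% and 12.4% of all promoters. Members with and without a peak hardly differed in the GC box, 22 of 46 and 8 of 16. A match is a description of letters and not a binding site.

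Some members lie within 500 kb of each other, so that their peaks may not be separate cases. Among the members, *Col6a2*, *Col6a1* and *Col18a1* follow each other on chromosome 10, *Col6a6*, *Col6a5* and *Col6a4* on chromosome 9, and *Col9a3* and *Col20a1* on chromosome 2. The pairs *Col9a1* with *Col19a1* and *Col4a4* with *Col4a3* lie on chromosome 1, and *Col4a1* with *Col4a2* on chromosome 8. The gaps ran from 0 kb (*Col4a1* with *Col4a2*) to 362.6 kb (*Col9a3* with *Col20a1*). Whether peaks of such neighbours depend on each other was not tested. Within these stretches the direction was mixed. *Col6a1* and *Col18a1* had less length in *Nsd2* ΔIE while *Col6a2* had similar length, and *Col9a3* and *Col20a1* both had less.

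Genes that act with collagens and integrins were also counted by name. Of 59 such genes, 46 had a peak, and 17 had less length in *Nsd2* ΔIE, 16 more and 13 similar, where 43.3%, 39.7% and 16.9% of all genes did so. The laminins and other ligands split into 6 less, 5 more and 5 similar, the enzymes and chaperones that make collagen into 4, 5 and 3, the other collagen receptors and collagenases into 2, 2 and 1, and the adhesion adaptors into 5, 4 and 4. *Loxl4*, a collagen cross-linking enzyme, covered 24810 bp and 3537 bp (log2 ratio -2.81), and *Src*, a kinase downstream of integrins, 45764 bp and 23211 bp (-0.98). The collagen receptor *Ddr2* and the gelatinase *Mmp2* had named peaks in *Nsd2* ΔIE only, covering 8833 bp and 8211 bp.

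Markers of the cells in a colon library were counted by name as well. Of 11 epithelial markers, 4 had a *Nsd2* fl/fl peak and 7 a *Nsd2* ΔIE peak, while *Krt8*, *Krt18*, *Cdx2* and *Car1* had none. The peaks covered 47515 bp and 77067 bp in all, of which *Vil1*, the villin gene, held 13184 bp and 23472 bp. By length 0 markers had less, 5 more and 2 similar, where 43.3%, 39.7% and 16.9% of all genes did so. Of 11 stromal and vascular markers, 5 had a peak in each library, covering 54197 bp and 46654 bp, with 3 less and 3 more, while *Pdgfra*, *Dcn*, *Lum*, *Acta2* and *Kdr* had none. Of 7 immune markers, 2 and 3 had a peak, covering 12757 bp and 20774 bp, and *Cd3e*, *Adgre1*, *Cd68* and *Ms4a1* had none. A peak of this mark does not show that a gene is expressed, and the part that cell composition plays in the lengths of collagen and integrin genes was not tested.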

How the data were processed

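H3K36me2 CUT&Tag was performed on colon tissue, with 1 library for each of the *Nsd2* fl/fl and *Nsd2* ΔIE genotypes. The authors deposited a peak list per library with the summed signal of each peak, its position and width in bp, the stretch of highest signal, and the gene, transcript and genomic feature it was assigned to. Their processing notes name Bowtie2, deepTools, SEACR and ChIPseeker, without versions. The notes name the human build hg38, whereas the transcripts are mouse and only 1 of 74 member transcripts starts where GRCm38.p6 places it. Coordinates of peaks are therefore given as the lists print them, with no mouse build named. No scaling of the deposited signal to depth is stated, so signal was not compared between libraries, and covered length in bp was compared instead. Covered length is not free of this limit, since it counts listed peaks only. The *Nsd2* fl/fl list ends at a summed signal of 21783, the other at 16571. With equal numbers of peaks per list, 21 members had less length, 19 more and 10 similar. How the calls would change at a common depth was not tested.

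Members were taken by symbol, and classes, pathway genes and markers from lists. Members and lists were chosen with earlier results of these data known. The result of 1 marker list is not reported here. Genes were named as follows: the chains of collagens I, III, IV and VI, the collagen- and laminin-binding, leukocyte and epithelial integrins, *Col17a1* and *Col7a1*, the 5 longest members per library, the 3 lowest and highest ratios, members with overlapping promoter peaks and the 3 peaks of highest signal per bp. Further members were named after their values were seen, to complete their classes. Peaks were shared from 1 bp of overlap on, and a log2 ratio of covered length past 0.5 as less or more. Intervals are 95% Wilson intervals and cover counting error only. The code, in Python 3.11.15 with pandas 2.3.3, numpy 2.4.6, scipy 1.17.1 and matplotlib 3.10.9, was tested on simulated data. Of the 18187 symbols, 17571 were found in the RefSeq table.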

Additional observations from a re-analysis of the deposited data

How the results depend on the processing

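No paired analysis was possible because there is only 1 library of each genotype. Over 13 alternatives for 10 counts and shares, 40 of 58 values stayed within 1.5 times the count given above, or within the 95% interval of the share, and 18 moved further. With promoter peaks only, 19 members had a peak in *Nsd2* fl/fl, 26 in *Nsd2* ΔIE and 13 in both, 13 had less length and 3 similar. With the strongest 50% of each list, 24, 30 and 18 members had a peak, and 5 had similar length. A log2 limit of 1 gave 12 members with less and 19 with similar length, and counting peaks in place of length gave 12 with fewer and 28 with more. Peaks over the gene body gave 17 with more and 15 with similar length, and bases inside the body, a setting chosen after seeing the data, 15 with more and 19 with similar length. A reciprocal overlap of 50% was met by 15.5% of the *Nsd2* fl/fl and 12% of the *Nsd2* ΔIE peaks of the members, and a promoter of 1 kb to either side held 23.1% of the *Nsd2* ΔIE peaks. The cause of these shifts was not tested. Apart from the counts by body, the shares over all genes or peaks were not computed under these alternatives. No setting can stand in for a second library of either genotype, and what depth limits is unknown. A peak just below the level at which a list ends is missing from it, and peaks of a gene share its surroundings.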
